A study of Arabidopsis thaliana with 79 samples.

Results

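The pPEP root line in air is one of the RNA populations of a series of 79 Affymetrix ATH1 arrays of Arabidopsis thaliana seedlings, and it is represented by 2 of those 79 arrays. Its plants carry the transgene pPEP:His6FLAG-RPL18B in the Col-0 background, so a tagged ribosomal protein L18 is made under the pPEP promoter. The labels describe RNA pulled down from it as root cortex RNA, in which only ribosomes of cells where the promoter is active carry the tag. The comparator consists of the 15 root arrays in air of 7 further Col-0 lines that carry the same tagged protein under another promoter. These are pSCR (2 arrays, labelled endodermis), pSHR and pWOL (2 arrays each, both labelled vascular), pSUC2 and pSultr2;2 (2 arrays each, both labelled phloem), pGL2 (3 arrays, labelled atrichoblast, the non-hair cells of the epidermis) and pRPL11C (2 arrays, labelled meristematic).

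All seedlings were 7 days old, and the air treatment lasted 2 h from the end of the light period at low light. The hypoxia counterpart, 2 h in argon, supplied 2 further pPEP arrays and 12 arrays of 6 of these lines, because pSultr2;2 has no hypoxia arrays here. Outside the comparator stood pCO2, a second line labelled root cortex, the p35S line, whose tag is driven by a promoter active in most cells, and total RNA of p35S roots. They are shown beside the results only as levels. The labels call replicates independent biological experiments. Extractions started from several mL of ground root tissue, so plants were pooled, and whether a line is 1 transformant is not given in the sources used here. In such pulled-down RNA, fewer cells of a type, weaker promoter activity and less RNA per cell cannot be told apart.

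The cortex is the ground tissue between the epidermis and the endodermis of the root. From general knowledge, its mature cells store starch and secondary compounds, carry water and ions inward, and take part in defence. Its cells arise with the endodermis from common initials, and the regulators SHORT-ROOT and SCARECROW separate the layers. The promoter name PEP refers, from general knowledge, to the gene AT1G09750, an aspartyl protease family member active in differentiated cortex.

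Values are log2 signals of probe sets, so a difference of 1 is a 2-fold change. Levels of different probe sets cannot be set against each other, because probes differ in binding. The difference given for a gene is the mean of the 2 pPEP arrays minus the mean of the 7 line means, with its standard error (SE), from 1 linear model in limma. A probe set counts as called, and a gene as risen or fallen in pPEP, when the limma p-value adjusted by Benjamini-Hochberg over 22746 probe sets is below 0.05 and the absolute difference is at least 1. The 2 pPEP arrays had medians of 6.43 and 6.37, below the medians of the 15 comparator arrays, which ran from 6.48 to 6.61. They correlated with each other at 0.975, against 0.98 to 0.993 within the other lines, and 1234 probe sets differed between them by more than 1. The gap between 3′ and 5′ control probes, a sign of RNA quality, was 5.83 and 6.01 for actin, inside the range of 5.73 to 6.86 of the comparator arrays.

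The line's own promoter gene was high in it. AT1G09750 measured 10.12 and 10.38 on the pPEP arrays, and the 15 comparator arrays ran from 5.89 through a median of 7.84 to 8.56. No comparator array reached a pPEP array. The difference was 2.67 ± 0.29 (SE), 6.38-fold, with a limma adjusted p of 3.51e-10. The line means were ordered from pGL2 at 8.08 ± 0.42 (SD, n = 3) over pSUC2, pSultr2;2, pWOL, pSCR and pSHR down to pRPL11C at 6.02 ± 0.19 (SD, n = 2). The pSHR arrays, at 8.01 and 7.22, spanned those of pSCR, pWOL and pSultr2;2, so these neighbours did not differ beyond their spread, whereas pRPL11C lay apart at the low end. The pCO2 line measured 8.86 and 9.01, between pPEP and the comparator, the total RNA arrays averaged 7.81 and p35S averaged 5.96.

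Of 6 listed cortex genes, 4 have a named probe set, and 3 of them rose (75.0%, against 5.28% of all probe sets). Their median difference over the 4 was 1.86, where the median over all probe sets was 0.02. The 3 and the median include the promoter gene AT1G09750 itself, so the further genes that rose were AT1G62510 and AT5G02000. AT1G62510, a small hybrid proline-rich and lipid transfer type protein, measured 9.65 and 9.34 against a comparator range of 5.42 to 6.86 with a median of 6.05, a difference of 3.40 ± 0.26 (SE). AT5G02000 measured 5.86 and 6.50 against 4.86 to 5.62, a difference of 1.05 ± 0.15 (SE). That call rests on the second array, since without pPEP replicate 2 the difference was 0.73. The probe set of AT1G62500, the gene known as CO2, whose promoter drives the pCO2 line, was near the lower end of the signal range everywhere. It measured 5.13 and 4.94 in pPEP, 4.44 to 4.87 in the comparator and 4.86 on average in pCO2, so it did not separate the cortex lines (difference 0.34, limma adjusted p = 0.141).

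**Figure D1:**
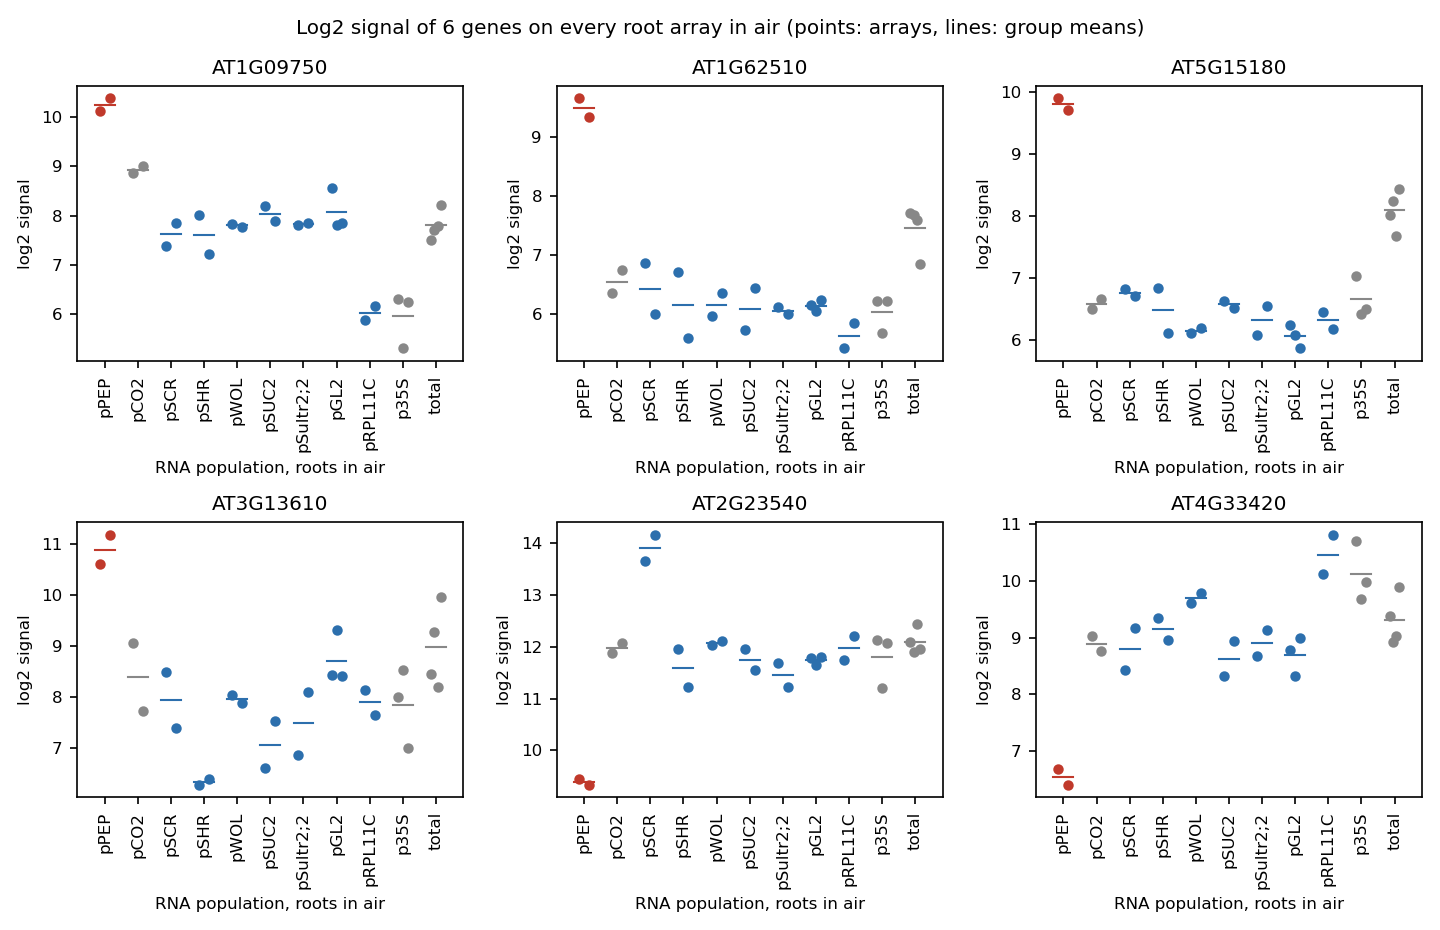
Log2 signal (y axis) of 6 genes on each root array in air, by RNA population (x axis). Points are arrays and short lines are group means, with pPEP in red, the 7 comparator lines in blue, and pCO2, p35S and total RNA in grey. The pPEP points lie above all blue points for AT1G09750, AT1G62510, AT5G15180 and AT3G13610 and below all of them for AT2G23540 and AT4G33420.

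Over the whole array, 1202 probe sets were higher in pPEP than the mean of the 7 lines (5.28% of those tested) and 1385 were lower (6.09%). Of these, 581 and 730 have 1 named gene. The differences reached 4.05 upward and −2.80 downward. By at least 2, 176 probe sets were higher and 112 lower, and 19 were higher by at least 3. Both pPEP arrays lay above all 15 comparator arrays for 1029 of the called higher probe sets, and below all 15 for 796 of the called lower ones. Over all 22746 probe sets, the corresponding counts were 1983 (8.72%) and 1685 (7.41%).

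A mean over lines can hide 1 deviating line, so pPEP was also set against each line alone. Against pSCR 1195 probe sets were called higher (5.25%) and 1223 lower (5.38%), and against pGL2 the counts were 1266 (5.57%) and 1496 (6.58%). The vascular lines gave 1621 higher (7.13%) and 1911 lower (8.4%) for pSHR, the most of any line, and 1138 (5.0%) and 1690 (7.43%) for pWOL. The phloem lines gave 1477 (6.49%) and 1347 (5.92%) for pSUC2, the one line with more higher than lower calls, and 1096 (4.82%) and 1455 (6.4%) for pSultr2;2. Against pRPL11C 1449 were higher (6.37%) and 1642 lower (7.22%). These 7 comparisons share the pPEP arrays. Called higher than every line were 491 probe sets (2.16%), and called lower than every line were 156 (0.686%). The lower count depends on 1 array, since without pPEP replicate 1 it was 360. Among the 491, the line with the next highest mean was pGL2 for 165 probe sets (33.6%) and pSCR for 110 (22.4%), while it was pSHR for 8 (1.63%). These 2 frequent runners-up are labelled for the tissues on either side of the cortex. Among the 156, the next lowest mean was in the phloem line pSUC2 for 50 (32.1%). It was in pSCR for 31 (19.9%) and in pGL2 for 26 (16.7%). How often each line ranks highest or lowest over all probe sets was not counted. These shares can therefore not be tied to the position of a tissue.

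**Figure D2:**
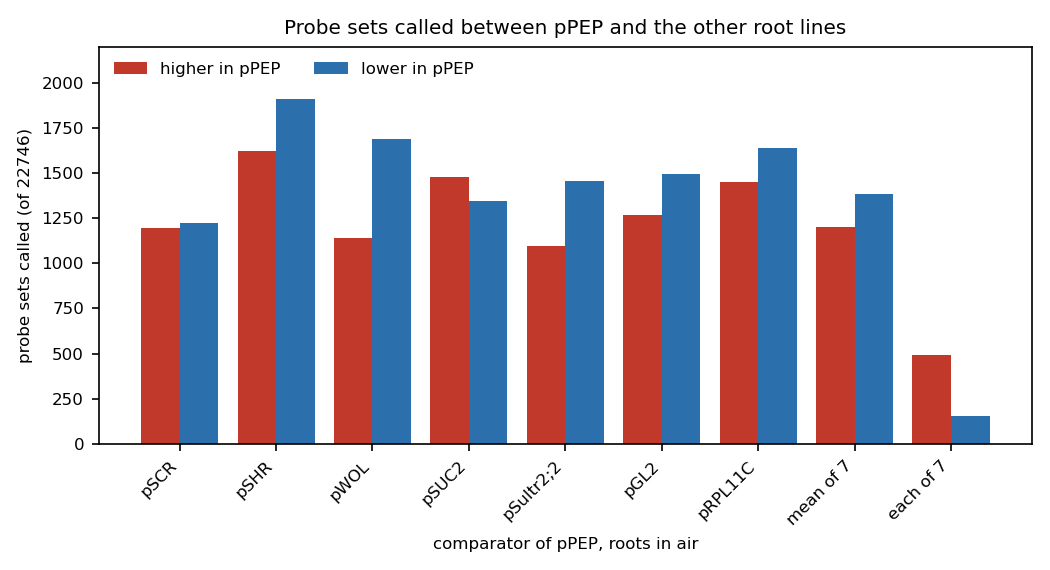
Number of probe sets called (y axis, of 22746 tested) between pPEP and each of the 7 root lines in air, their mean, and all 7 lines at once (x axis), with red bars for higher and blue bars for lower in pPEP. Calls against single lines run from 1096 to 1911, while 491 are higher and 156 lower than each of the 7 lines.

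The 1202 higher probe sets had a median level of 9.06 in pPEP and of 7.20 (pSHR) to 7.69 (pGL2) in the comparator lines. In pCO2 the median was 7.76 and in total root RNA 7.88. The 1385 lower probe sets had a median of 6.79 in pPEP against 7.96 (pSCR) to 8.47 (pRPL11C) in the lines. The line with the highest mean among the lower probe sets was pRPL11C for 354 (25.6%), pSHR for 321 (23.2%), pSUC2 for 292 (21.1%) and pSCR for 220 (15.9%).

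The leading genes were taken from called probe sets with 1 named gene, which are 7 of the 19 probe sets higher by at least 3. Both pPEP arrays had to lie outside all 15 comparator arrays, so that separation was a condition of the choice and not a result. The genes furthest above the comparator included a class III peroxidase, cytochromes P450, a feruloyl-CoA hydroxylase and a pectin methylesterase. In each of the 15 leading higher genes the pPEP mean also exceeded the means of pCO2, p35S and total RNA. Differences ran from 2.72 to 3.43. The next highest line was pSCR for 7 of them, pGL2 for 5, pWOL for 2 and pSultr2;2 for 1. Total RNA lay above the mean of the 7 lines for all 15, and pCO2 for 12.

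AT5G15180, a class III peroxidase of the secreted enzymes that couple or loosen wall polymers, led the list. It measured 9.90 and 9.71 in pPEP, and 5.86, 6.23 and 6.84 as the lowest, median and highest comparator array, a 10.8-fold difference (3.43 ± 0.17 SE, limma adjusted p = 7.92e-21). Its other lines lay close together, between 6.05 in pGL2 and 6.76 in pSCR. Total RNA stood at 8.09, above all 7 of them.

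The cytochromes P450 CYP71B26 and CYP71B34 belong to a large plant family of monooxygenases. CYP71B26 measured 10.62 and 10.66 in pPEP against 6.23 to 8.38 with a median of 7.27, a difference of 3.42 ± 0.25 (SE). CYP71B34 measured 10.21 and 9.67 against 5.86 to 7.65 with a median of 6.85, a difference of 3.08 ± 0.19 (SE). For both, pGL2 was the highest and pSHR the lowest comparator line.

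AT3G13610, the feruloyl-CoA hydroxylase F6'H1, makes the coumarin precursor of scopoletin that roots use in iron acquisition and defence. It measured 10.60 and 11.17 against 6.28 to 9.31 with a median of 7.88, a 9.57-fold difference (3.26 ± 0.36 SE). The comparator itself was wide, from a mean of 6.34 in pSHR to 8.71 in pGL2, and the pCO2 arrays measured 9.06 and 7.72. Every difference to a single line was at least 2.17.

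ATPMEPCRD, a pectin methylesterase acting on wall pectin, measured 9.10 and 10.51 against 6.06 to 7.36, so its pPEP arrays differed from each other by more than most. AT1G17300 differed even more between its arrays, with 8.03 and 6.38, and the highest comparator array measured 5.15. The differences were 3.10 ± 0.24 and 3.01 ± 0.20 (SE). Both genes were called with either pPEP array left out.

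DLAH, a lipid acyl hydrolase of the DAD1-like group, measured 9.67 and 10.24 against 6.07 to 7.83, a difference of 2.98 ± 0.31 (SE). AT5G59530 and AT5G59540 are neighbouring genes by their locus numbers and both encode oxygenases that depend on 2-oxoglutarate and iron. AT5G59530 measured 9.44 and 9.34 against 5.23 to 7.58, and AT5G59540 measured 9.87 and 9.73 against 6.15 to 7.61. Their differences, 2.97 ± 0.20 and 2.87 ± 0.18 (SE), were alike, while the runner-up line was pGL2 for the first and pWOL for the second.

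AT3G05150, a sugar transporter of the ERD6-like group, measured 9.79 and 9.64 against 6.28 to 7.43, a difference of 2.93 ± 0.16 (SE). AT4G20820, a berberine bridge type oxidoreductase, measured 9.94 and 9.41 against 5.50 to 7.75, a difference of 2.87 ± 0.21 (SE). AT3G29410, a terpene synthase, measured 8.85 and 9.62 against 5.55 to 7.50, a difference of 2.72 ± 0.23 (SE). In all 3 the groups did not overlap, as the choice of leading genes requires.

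AT2G45180 and AT4G22460 belong, like AT1G62510, to the hybrid proline-rich and lipid transfer proteins, small secreted proteins with a lipid-binding fold. AT2G45180 measured 10.38 and 9.69 against 6.58 to 8.16, and AT4G22460 measured 10.78 and 10.41 against 7.28 to 8.81. These 3 were the called ones of the 8 measured members of that list of 26 (37.5%, against 5.28% of all probe sets), whose median difference was 0.31. The other 5 measured members lay between −0.06 and 0.34. The list does not hold every lipid transfer gene. AT3G53980 and AT5G01870, lipid transfer type genes outside it, were among the leading lower genes, 6.15-fold and 5.4-fold lower.

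**Figure D3:**
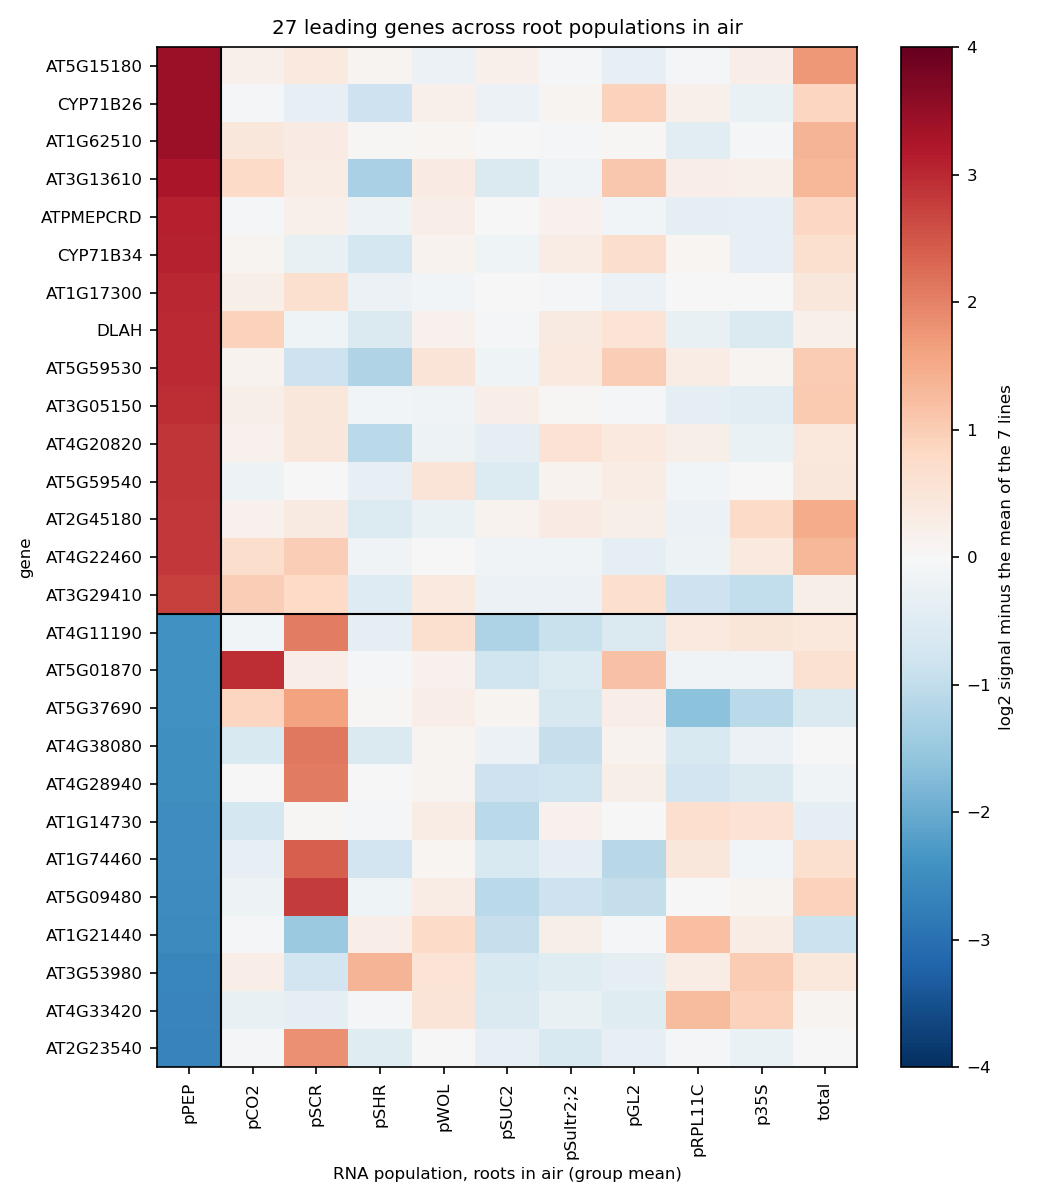
Group means of the 15 leading higher and 12 leading lower genes (rows) in 11 root populations in air (columns), as log2 signal minus the mean of the 7 comparator lines (colour). The pPEP column runs from 3.43 at the top to −2.67 at the bottom, and 7 of the 12 lower genes have their highest comparator mean in pSCR.

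The genes furthest below the comparator included GDSL-type lipases, peroxidases, a dirigent protein and small extracellular proteins. Differences in the 12 leading genes ran from −2.43 to −2.67. The line with the highest mean was pSCR for 7, pRPL11C for 3, pSHR for 1 and pGL2 for 1. The pPEP mean was also below pCO2, p35S and total RNA for all 12.

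AT2G23540, a GDSL-type esterase or lipase, measured 9.45 and 9.34 in pPEP and 11.22, 11.80 and 14.15 as the lowest, median and highest comparator array. The difference was −2.67 ± 0.22 (SE), 6.38-fold lower, with a limma adjusted p of 9.28e-14, and the difference to the endodermal line alone was −4.50. AT1G74460 and AT5G37690, of the same enzyme family, measured 7.77 and 8.46 against 8.99 to 13.38, and 8.45 and 7.31 against 8.47 to 12.03. All 3 peaked in pSCR, at 13.9, 12.99 and 11.93.

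AT4G33420, a class III peroxidase, measured 6.69 and 6.41 against 8.32 to 10.81 with a median of 8.99, a difference of −2.65 ± 0.27 (SE), and peaked in the meristematic line at 10.47. AT3G53980, a lipid transfer type protein, measured 9.64 and 8.61 against 10.59 to 13.36 and peaked in pSHR at 13.11. AT5G01870, a lipid transfer protein, measured 6.43 and 5.87 against 7.62 to 10.05. It was the one leading lower gene whose level in pCO2, the other line labelled cortex, lay above every comparator array, at 11.79 and 11.25.

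AT1G21440 measured 8.57 and 7.46 against 8.75 to 11.82 and peaked in pRPL11C. AT1G14730, a cytochrome b561 type protein, measured 8.05 and 8.52 against 9.44 to 11.49 and peaked in pRPL11C as well. Differences were −2.55 ± 0.26 and −2.49 ± 0.19 (SE). The 2 proline-rich wall protein genes AT5G09480 and AT4G38080, AT4G28940 and the dirigent protein gene AT4G11190 peaked in pSCR, between 11.77 and 13.78, and their pPEP arrays lay between 6.19 and 9.39. AT5G09480 differed by −5.33 from pSCR and by −1.45 from the nearest line.

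Ranked by the smallest difference to any line, AT5G64100 and AT1G15640 joined the higher genes. AT5G64100, a peroxidase, measured 13.49 and 12.91 against 9.53 to 11.19, and AT1G15640 measured 9.14 and 9.44 against 6.29 to 7.35. On the lower side AT4G15830 measured 7.71 and 6.86 against 8.87 to 9.94. Its 7 line means spanned only 8.98 to 9.90, so its low level was against an even comparator.

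Class III peroxidases moved in both directions. Of 73 listed genes 55 were measured, 7 rose (12.7%, against 5.28% of all probe sets) and 20 fell (36.4%, against 6.09%), and the median difference was −0.23. Of the 55, 6 were higher than every line and 8 lower, where 2.16% and 0.686% of all probe sets were. The mean over the 55 members was 6.62 and 6.70 on the pPEP arrays, below every comparator line, whose means ran from 7.00 in pGL2 to 7.47 in pSCR.

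Among the peroxidases that rose, AT4G30170 measured 14.20 and 13.04 against 10.54 to 12.23, a difference of 2.08 ± 0.27 (SE). AT3G01190 measured 11.59 and 11.53 against 8.48 to 10.28, a difference of 1.83 ± 0.25 (SE). AT5G64120, AT5G39580 and AT2G37130 rose by 1.88, 1.79 and 1.23. Their groups did not overlap either, where 8.72% of all probe sets had both pPEP arrays above all 15 others. Total RNA was also high for AT3G01190, at 11.17.

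Of the 20 that fell, 8 had their highest mean in pSCR, 5 in pSUC2 and 4 in pRPL11C. AT5G66390 measured 7.32 and 6.99 in pPEP against 8.46 to 12.77, AT1G68850 measured 6.35 and 6.82 against 7.61 to 11.69, and Prx37 measured 4.88 and 4.82 against 5.49 to 10.19. These 3 peaked in the endodermal line. AT3G21770 measured 9.31 and 9.09 against 10.80 to 12.16, with its peak in pRPL11C and a narrow comparator. Its difference was −2.28 ± 0.17 (SE).

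Dirigent proteins guide the coupling of phenols into lignans and lignin. The list of 24, drawn up after a dirigent gene was seen among the leading lower genes, had 14 measured members, of which 6 fell (42.9%, against 6.09% of all probe sets), 1 rose (7.14%, against 5.28%) and the median was −0.53. Of the 6, 4 peaked in pSCR. AT2G21100 measured 7.23 and 7.36 against 8.22 to 12.38, and AT4G11210 measured 6.33 and 5.78 against 6.78 to 9.72. The member that rose, AT3G13650, measured 11.98 and 10.20 against 9.04 to 10.37, so its groups overlapped, and it was not called without pPEP replicate 1.

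UDP-glycosyltransferases attach sugars to hormones, phenolics and other small molecules. Of 51 measured, 15 rose (29.4%, against 5.28% of all probe sets), 1 fell (1.96%, against 6.09%) and the median difference was 0.24. The count ran from 12 to 16 over the alternatives. Called above each of the 7 lines were 8 of the 51, where 2.16% of all probe sets were. The mean over the 51 members was 7.28 and 7.41 in pPEP, above every comparator line, whose means ran from 6.72 in pSHR to 6.95 in pSCR.

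UGT76B1, which glucosylates isoleucic acid and salicylic acid, measured 12.60 and 11.83 against 8.50 to 10.22, a 6.58-fold difference (2.72 ± 0.30 SE). UGT72E2, which glucosylates monolignols, measured 12.55 and 12.04 against 9.35 to 10.49, a difference of 2.22 ± 0.23 (SE). UGT84A1, a hydroxycinnamate glucosyltransferase, measured 7.62 and 7.79 against 5.32 to 6.07. Its relative UGT84A4 measured 10.27 and 9.94 against 7.93 to 9.10. In these 4 no comparator array reached pPEP, which held for 8.72% of all probe sets.

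UGT71C1 rose by 2.60 ± 0.29 (SE) and UGT88A1 by 1.84 ± 0.21 (SE), while UGT71C3 fell by 1.60. The monolignol relatives split by line. UGT72E1 measured 10.46 and 10.77 against 8.45 to 10.43, and UGT72E3 measured 9.35 and 9.79 but was higher still in pSCR, at 10.88. UGT78D2, a flavonol and anthocyanin glucosyltransferase, measured 10.65 and 10.90 against 9.17 to 10.34. UGT74B1, of glucosinolate synthesis, measured 11.19 and 10.37 and did not pass the test.

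Within the CYP71B family of cytochromes P450, 5 of 19 measured members rose (26.3%, against 5.28% of all probe sets), 0 fell by limma (1 at an unadjusted p below 0.05; 6.09% of all probe sets fell) and the median was 0.09. The 2 described above were chosen as leading higher genes and count in the 26.3%. The other members that rose were CYP71B29, CYP71B23 and CYP71B6, with differences of 1.35, 1.21 and 1.13. None of the latter 3 was called without pPEP replicate 1, which left 2 called members. Most of the family lay near 0.

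In the nitrate and peptide transporter family, 34 of 53 listed genes were measured, 2 rose (5.88%, against 5.28% of all probe sets), 5 fell (14.7%, against 6.09%) and the median was 0.03. GTR1, a glucosinolate importer, measured 9.52 and 9.91 in pPEP against 7.53 to 8.55, a difference of 1.76 ± 0.22 (SE). AT3G45710 measured 12.22 and 12.14 against 10.04 to 11.48. Its neighbour AT3G45680 went the other way, with 7.70 and 7.40 against 8.52 to 10.23.

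Of 16 SWEET sugar transporters, 1 rose (6.25%, against 5.28% of all probe sets) and 3 fell (18.75%, against 6.09%). SWEET17, a fructose carrier of the vacuole membrane, measured 10.16 and 9.79 against 7.87 to 9.16. SWEET11 and SWEET13, sucrose exporters of phloem loading, fell by 1.47 and 1.95, with their highest means in pWOL and pSUC2. SWEET14 fell by 1.16, and without pSUC2 in the comparator it was not called.

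The measured root hair, stele and phloem genes were low, the endodermis genes mixed, and the ground tissue patterning genes slightly above the mean of the lines. Of 15 endodermis and barrier genes 3 were measured, and their mean was 8.36 and 8.44 in pPEP, 9.79 and 10.31 in pSCR and 7.37 to 8.17 on the other comparator arrays. GSO1, the receptor kinase that keeps the Casparian strip continuous, rose by 1.09 against the mean of the lines, though pSCR was above it at 10.22 and pPEP measured 9.02 and 9.32. It was not called without pPEP replicate 2. AT1G61590, a kinase of the same barrier pathway, measured 8.04 and 8.06 in pPEP and 10.97 on average in pSCR, a difference of −0.53 that missed the 2-fold threshold.

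Of 11 ground tissue patterning genes 4 were measured and 0 were called by limma (1 at an unadjusted p below 0.05), with differences of 0.13 to 0.81. The zinc finger gene JKD, active in ground tissue, measured 7.93 and 7.74 against 6.38 to 8.03, and its mean in pSCR was 7.86. Its difference, 0.81 ± 0.20 (SE, limma adjusted p = 0.00108), missed only the 2-fold threshold.

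All 3 measured genes of 13 root hair genes fell, where 6.09% of all probe sets fell, with a median of −1.61. EXPA7 and EXPA18, expansins of growing root hairs, measured 5.96 and 6.22 against 6.41 to 8.63, and 6.57 and 7.56 against 7.20 to 9.54. The mean over the 3 was 6.71 and 7.12 in pPEP. It was 7.31 to 7.63 in pRPL11C and above that in the other lines, up to 9.24 in pSCR, and it was highest in total RNA, at 10.00 on average.

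Stele and phloem lists had 1 measured member each, LHW of vascular patterning (of 21 listed) and SWEET11 (of 14). LHW measured 7.99 and 8.16 against 8.62 to 9.86, a fall of 1.20. The lists for root epidermis (6 genes), root cap (5), nutrient uptake (21), aquaporins (13), auxin transport (9) and flavonoid synthesis (5) had 0 measured members, so these tissues and pathways could not be checked with named probe sets. RCA, rubisco activase, was the one measured of 9 photosynthesis genes and rose by 1.17, with 8.35 on both pPEP arrays against 5.83 to 7.99, and by 0.93 when 50 was added to the linear values, which ends the call.

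Genes of dividing cells were low. Of 31 listed genes of cell cycle and DNA replication 4 were measured. Of these, 3 fell below each of the 7 lines (75.0%, against 0.686% of all probe sets). AUR1 and AUR2, aurora kinases of mitosis, measured 7.14 and 6.56 against 7.95 to 9.17, and 6.34 and 5.17 against 6.84 to 8.02. PRL, a subunit of the replication helicase, measured 6.28 and 5.93 against 7.09 to 8.42. AUR3 was lower by 0.87 and missed the 2-fold threshold. The mean over the 4 was 5.74 and 6.22 in pPEP and 7.04 to 7.99 on the comparator arrays, and 7.45 and 7.65 in pCO2. Of 4 histone H2B genes 2 fell (50.0%, against 6.09% of all probe sets), with a median of −1.07, and 4 fell without pPEP replicate 1 but 1 without pPEP replicate 2.

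Cytosolic ribosomal protein genes lay low together, by a small margin. Of 114 measured (194 listed), 111 had a difference below 0, 30 fell (26.3%, against 6.09% of all probe sets), 0 rose by limma (also 0 at an unadjusted p below 0.05, where 104 were lower) and the median was −0.87. The mean over the 114 genes was 10.24 and 9.66 on the pPEP arrays, against 10.38 to 11.28 on the comparator arrays. AT4G30800 measured 8.58 and 7.89 against 9.54 to 10.80, and AT4G29410 measured 10.51 and 9.38 against 10.98 to 12.01. The number called depends on the array, with 72 without pPEP replicate 1 and 10 without pPEP replicate 2. The low side did not, since the median was −1.15 and −0.51 in those cases.

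The median ribosomal protein difference was most negative against pSHR, at −1.16, and least against pSUC2, at −0.50. Of the 30 that fell, 21 had their highest mean in pSHR. The 69 measured plastid-encoded genes had a median of −0.28 and 4 fell (5.80%, near the 6.09% of all probe sets). Their mean level was 5.35 and 6.05 on the pPEP arrays and varied widely between lines, from 5.13 in pRPL11C to 6.62 in pSCR. Without pPEP replicate 2 the count of plastid-encoded genes that fell was 11, and without replicate 1 it was 2.

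Expansins loosen the wall for cell extension. Of 19 expansins 6 fell (31.6%, against 6.09% of all probe sets) and 0 rose by limma (1 at an unadjusted p below 0.05), with a median of −0.22. The 6 include EXPA7 and EXPA18 of the root hair list. EXPB3 measured 9.87 and 9.66 against 9.25 to 12.67, and EXPA15 measured 9.28 and 9.40 against 8.38 to 12.53. In both the lines ran over a wide range with the peak in the meristematic line, so pPEP was not at the bottom. EXPA8 was higher by 0.78 and did not pass the threshold. Of 10 XTH genes of xyloglucan remodelling 2 fell (20.0%), 1 of them not with 50 added to the linear values. Of 22 wall growth genes 10 were measured and 4 fell, where 6.09% of all probe sets fell. The 4 were EXPA4, EXPA15, XTH20 and GH9C2, and all but GH9C2 are already counted among the expansins or XTH genes.

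Tubulins, the subunits of microtubules, split by gene. TUB1 measured 12.16 and 11.35 against 8.45 to 10.54, a difference of 2.29 ± 0.22 (SE), and was above each of the 7 lines. TUB5 measured 10.63 and 10.12 against 8.13 to 9.56. TUB7 measured 7.37 and 6.84 against 7.80 to 9.32. Of the 7 measured members 2 rose (28.6%, against 5.28% of all probe sets), 1 fell (14.3%, against 6.09%) and the other 4 were not called.

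**Figure D4:**
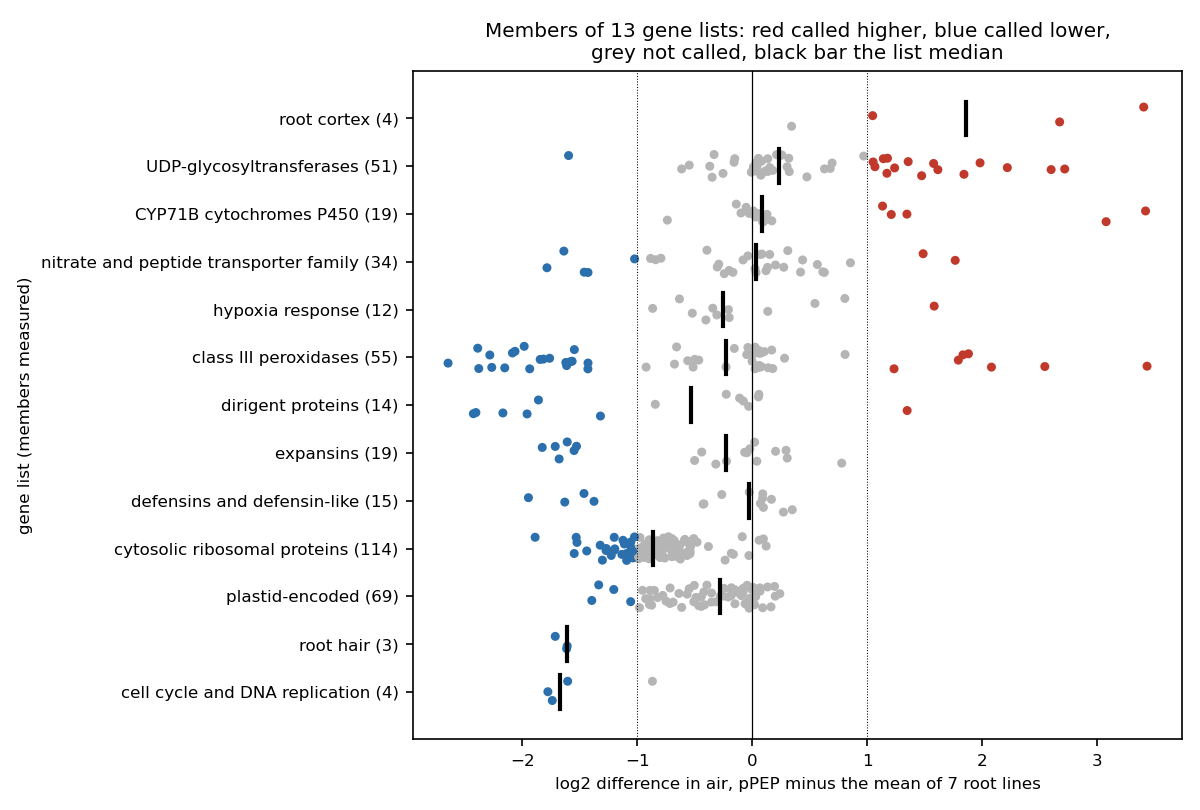
Log2 difference in air, pPEP minus the mean of 7 root lines (x axis), for each measured member of 13 gene lists (y axis, number measured in brackets). Red points were called higher, blue called lower, grey not called, and black bars are list medians, from −1.67 for the cell cycle list to 1.86 for the cortex list.

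In smaller families leaving out 1 array moved some counts by 1, as with GSTL3, a glutathione transferase at 1.01 that fell short of the threshold without pPEP replicate 1, pSHR replicate 1, pWOL replicate 2, pGL2 replicate 2 or pSUC2 replicate 2. Among 14 glutathione transferases 2 rose (14.3%) and 3 fell (21.4%), and among 22 beta-glucosidases 1 rose (4.55%) and 2 fell (9.09%). Among 15 defensins and defensin-like genes 4 fell (26.7%), and among 7 WRKY transcription factors 1 rose (14.3%). Over all probe sets the shares were 5.28% higher and 6.09% lower. BGLU15 measured 7.15 and 7.40 against 8.59 to 10.36, with its peak in pSCR. LCR68, a defensin-like gene, measured 10.68 and 10.41 against 10.87 to 13.32. WRKY47 measured 7.92 and 7.57 against 5.70 to 6.93.

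PYK10, the abundant root beta-glucosidase of ER bodies, was near the top of the signal range everywhere, with 14.48 and 14.55 in pPEP against 14.02 to 14.59. NAI2, which builds ER bodies, measured 12.78 and 12.28 against 10.84 to 12.26, a difference of 0.91 ± 0.25 (SE) that missed the 2-fold threshold. The measured triterpene gene (of 6 listed), the acyltransferase AT5G47980 of the thalianol cluster, measured 10.82 and 11.34 against 8.64 to 10.56 and rose by 1.60. HCT, the measured one of 12 phenylpropanoid genes, was lower by 0.92 and was not called.

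Of 24 genes of the core hypoxia response 12 were measured. In air 1 was called higher (8.33%, against 5.28% of all probe sets). It was AT1G33055, which measured 8.35 and 9.98 in pPEP against 6.70 to 9.02, and it was not called without pPEP replicate 2. The median of the 12 was −0.26. Their mean level in air was 6.08 and 6.42 in pPEP, inside the comparator range of 5.99 to 7.03.

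The hypoxia arrays were used to ask whether the cortex line stood apart in the same way after 2 h in argon. They do not enter the air means, but both comparisons take their spread from 1 model over all 79 arrays. There 1005 probe sets were higher in pPEP (4.42%) and 893 lower (3.93%). Of the 1202 higher in air 719 were called higher under hypoxia too, which is 59.8% of the air list and 71.5% of the hypoxia list. Of the 1385 lower in air 735 were also called lower, 53.1% of the air list and 82.3% of the hypoxia list. Opposite calls numbered 0 by limma (3 at an unadjusted p below 0.05 under hypoxia), and the sign was kept for 1194 of the higher and 1373 of the lower probe sets.

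All 15 leading higher and all 12 leading lower genes were called in the same direction under hypoxia. AT5G15180 measured 10.17 and 9.36 against 5.03 to 7.03 there, a difference of 3.72 ± 0.17 (SE). AT1G09750 measured 10.72 and 10.23 against 5.88 to 9.46, a difference of 1.91 ± 0.30 (SE). AT2G23540 measured 9.68 and 9.75 against 10.23 to 13.55, a difference of −1.71 ± 0.22 (SE). Of the probe sets above each of 7 lines in air, 399 (81.3%) were called higher under hypoxia, and of those below each line, 132 (84.6%) were called lower.

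Under hypoxia 7 of 55 peroxidases rose and 19 fell, where 4.42% of all probe sets rose and 3.93% fell. Of 51 UDP-glycosyltransferases 8 rose, after 15 in air, and 1 fell. Of 114 ribosomal protein genes 41 fell, with a median of −0.91. In further lists the balance of higher and lower members also differed from that in air. Of the 10 wall growth genes XTH18 and XTH19 rose and XTH20 fell under hypoxia, where 4 had fallen in air, and the median over the 10 XTH genes was 0.12 after −0.08 in air. In the nitrate and peptide transporter family 3 rose and 3 fell. The median of the 3 endodermis and barrier genes was −0.30 under hypoxia and 0.24 in air, and that of the 12 hypoxia response genes was 0.16 and −0.26. These shifts of lists between conditions were not tested as such. Of the 3 root hair genes 0 were called by limma there (3 lower at an unadjusted p below 0.05), with a median of −0.65, although EXPA7 measured 5.25 and 5.76 against 5.58 to 6.59. The change of the difference itself was tested over the 6 shared lines, and 32 probe sets (0.141%) had a more positive and 57 (0.251%) a more negative difference in air than under hypoxia, 47 of them among the probe sets called in air.

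**Figure D5:**
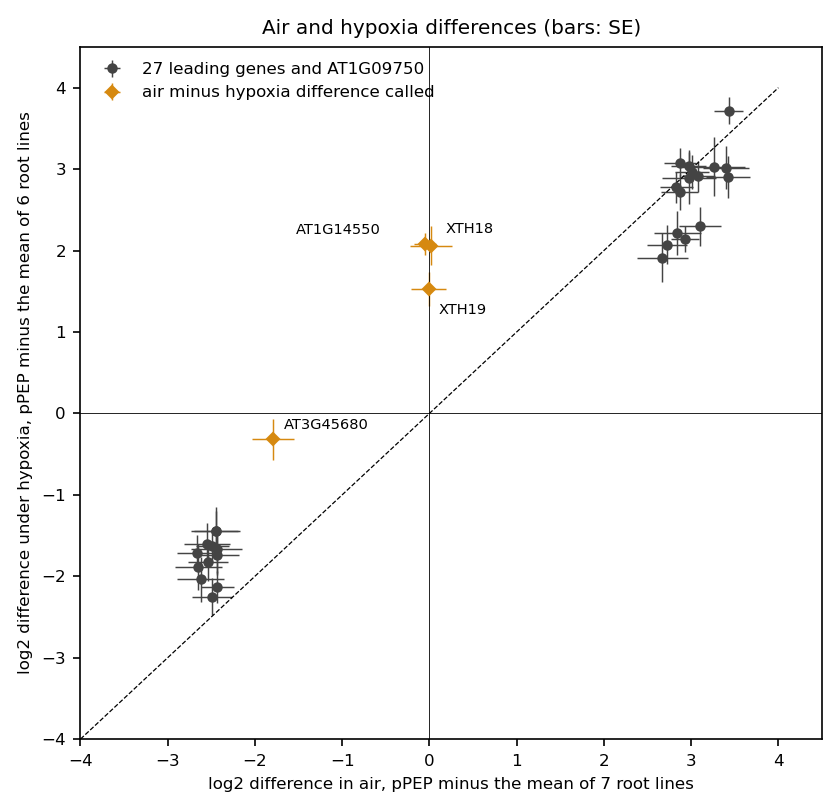
Log2 difference in air against the mean of 7 lines (x axis) and under hypoxia against the mean of 6 lines (y axis) for the 27 leading genes and AT1G09750 (grey circles), with SE bars and the line of equality dashed. The circles lie in 2 clouds on the same side of 0 in both conditions, and 4 named genes whose air difference over 6 lines differed from their hypoxia difference are orange.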

How the data were processed

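Members, gene lists and tests were chosen with earlier results of these data known. The values are log2 signals of 22810 probe sets. The authors deposited these log2 values after RMA in the R package affy, per the submitters' processing notes, for which no version is given. RMA corrects background, quantile-normalizes probes and summarises them, which evens out array-wide shifts. The sources used here do not say if the arrays went through RMA jointly. RNA went through amplification in 2 cycles, per the labels' protocols.

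From these values, 64 control probe sets were left out and no other filter was applied. One limma model (limma 3.58.1, R 4.3.3) estimated the 36 group means from the 79 arrays (43 residual and 4.48 prior degrees of freedom), so groups of 2 borrow the spread of all others. The number of arrays limits the precision. On simulated data, 97 of 100 differences of 1.5 and 100 of 100 of 3 were recovered, with 1 false call. The simulated noise was independent and had 1 spread per probe set in all groups. It does not cover the larger scatter between the 2 pPEP arrays, so it gives no rate of false calls for them.

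The platform annotation and RefSeq (TAIR10.1) gave 1 gene to 13513 probe sets, several to 503 and none to 8730. Probe sets of 1 gene may bind close relatives, which was not tested. No coordinates are given, because no build is named for the array. Named genes are those called with both pPEP arrays outside all 15 others (15 largest higher, 12 largest lower), up to 15 above and 5 below every line by their smallest distance, and list members, each by its brightest probe set. Lists of peroxidases, transporters of the nitrate and peptide family and ribosomal proteins came from general knowledge, families such as UDP-glycosyltransferases from annotation symbols. Alternatives are given in the closing section.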

Additional observations from a re-analysis of the deposited data

Results flagged for a closer look

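For 4 named genes the air difference over 6 lines, minus the hypoxia difference over the same lines, passed the test of that change in limma. XTH18 and XTH19, genes of xyloglucan remodelling, were level with the other lines in air and higher in pPEP under hypoxia. XTH18 measured 6.92 and 6.97 in air against 5.95 to 7.45, and 9.77 and 9.55 under hypoxia against 7.04 to 7.96, a change of −2.03 (limma adjusted p = 0.000475). XTH19 measured 8.22 and 8.27 in air against 8.00 to 8.99, and 9.53 and 9.43 under hypoxia against 7.72 to 8.48, a change of −1.55 (limma adjusted p = 0.0024).

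The peroxidase gene AT1G14550 measured 4.24 and 4.47 in air against 4.20 to 4.71, and 7.41 and 6.82 under hypoxia against 4.72 to 5.46, a change of −2.15 (limma adjusted p = 6.34e-11). AT3G45680, of the nitrate and peptide transporter family, was low in air, with 7.70 and 7.40 against 8.52 to 10.23. Under hypoxia its arrays measured 6.50 and 7.07 against 6.28 to 7.75, and the change was −1.55 (limma adjusted p = 0.0176). Under hypoxia both pPEP arrays of XTH18, XTH19 and AT1G14550 lay above every comparator array, while those of AT3G45680 lay inside the comparator range.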

How the results depend on the processing

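Leaving out 1 array at a time moved the air counts to 1187 to 1400 higher and 1268 to 1825 lower, those against every line to 413 to 560 and 140 to 360, and the hypoxia counts to 884 to 1136 and 844 to 1002. Calls shared by air and hypoxia ran from 622 to 771 higher and 643 to 772 lower. The counts of 1825 lower in air and 360 below every line came without pPEP replicate 1. Adding 50 to the linear values, which shrinks differences of dim probe sets, left 831 higher and 820 lower probe sets in air. Against every line it left 335 above and 66 below. Under hypoxia 680 were then higher and 477 lower, and in both conditions 482 were higher and 383 lower. Against the 6 lines of the hypoxia comparison, 1374 were lower in air. Quantile normalization gave 1173 higher and 1259 lower. Filtering dim probe sets, fitting root arrays alone, a variance trend, adding pCO2, leaving out a line and averaging over 15 arrays kept the counts over all probe sets within 1.5 times of those reported.

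Like-numbered arrays of pPEP and other lines deviated together at correlations from −0.40 (pRPL11C) to 0.48 (pSultr2;2) in air, with no common sign over the lines. Pairing of pPEP with single lines was not tested, and the main model used no pairing. With the replicate block 1200 were higher and 1379 lower in air, 487 and 155 against every line, and 1009 and 897 under hypoxia. Of 16835 alternatives for single named genes 16498 left the call as it was, 143 lost it, 194 gained one and 0 reversed. For leading and cortex genes 2 of 1086 lost it, both AT5G02000, at 0.73 without pPEP replicate 2 and 0.53 with 50 added. No named gene had a second probe set matched to that gene alone, so representing a gene by another probe set gave no value.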
